A study of Mus musculus with 6 samples.

Results

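The genes described here are 10 that encode the building blocks of microtubules and a protein that binds them: the alpha tubulin genes Tuba1a, Tuba1b, Tuba1c and Tuba4a, the beta tubulin genes Tubb2a, Tubb4b, Tubb5 and Tubb6, the gamma tubulin gene Tubg1 and the stathmin gene Stmn1. They were taken by symbol from a list, and all 10 had a row among the 26771 genes listed in any of the 6 libraries. The cells were γδT17 cells, which are γδ T cells known for secreting interleukin-17. They came from spleens of C57BL/6 mice with a deleted T cell receptor β chain gene (TCRβ-/-), an allele that both groups carry. The Initial group holds uncultured cells that were sorted from splenocytes, and the labels do not state the gate. The Induced group holds cells harvested at day 8 of a culture with IL-1β and IL-23 and purified with a T cell isolation kit, of which over 90% made IL-17A per the labels. Each group has 3 libraries, 1 for each of the mice lettered A, B and C, and the labels use these letters in both groups. Culture, cytokines, time and the way of purifying the cells differ together between the groups, so their shares in any difference cannot be told apart. The labels give no age.

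Microtubules are hollow polymers of dimers of alpha and beta tubulin. They serve as tracks for transport, set the polarity of a T cell towards its target, and form the spindle at division. Gamma tubulin sits in a ring complex at the centrosome from which microtubules grow, and stathmin binds free dimers and promotes the shortening of microtubules until kinases phosphorylate it. Cells also hold tubulin level by breaking down tubulin messenger RNA during translation when free dimers are abundant.

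All values are FPKM (fragments per kilobase of transcript, relative to library size), which are scaled per length and can be compared between genes as levels. Depth was estimated from the steps between low values at about 19000000 to 22400000 fragments in the Initial and 20000000 to 23300000 in the Induced libraries, a rough estimate because 43.1 to 49.5% of low values lay within 0.15 of a whole fragment where chance gives 30%. The member with the fewest estimated fragments in a library was Tubb6 with 229, for a counting error of about 6.6%. The γδ T cell genes Trdc and Cd3e were high in every library, at 299 to 357 FPKM and 217 to 326 FPKM. Trdc did not pass the test (limma adjusted p = 0.762), whereas Cd3e fell from a mean of 318 to 220.1 FPKM (limma adjusted p = 1.2e-04). Il17a was at 15.3, 7.34 and 8.66 FPKM before and at 17.5, 22.5 and 7.64 after culture, overlapping groups that did not pass the test (limma adjusted p = 0.325). Markers of other cells were present in Initial libraries. The summed level of 6 macrophage genes was 411 to 727 FPKM there against 0.489 to 0.886 in Induced libraries, and all 6 fell. The 4 red cell genes summed to 731 to 1072 against 0.717 to 0.933 (all 4 fell, Alas2 with no row in any Induced library), and the 5 B and plasma cell genes to 391 to 446 against 24.5 to 46.5 (all 5 fell). Platelet genes summed to 2.70 to 6.90 and 0 to 0.241 FPKM, neutrophil genes to 0.0850 to 14.0 and 0.503 to 4.61, and dendritic cell genes to 5.99 to 7.62 and 2.56 to 2.93 (3 fell and Xcr1 rose). Of 20 T cell identity genes, 2 rose and 12 fell, with sums of 5208 to 5429 and 3163 to 3557. These lists move with the groups, and their part in the tubulin and stathmin values was not tested. In such bulk libraries, fewer cells of a type and less RNA per cell cannot be told apart.

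Of the 10 genes, 9 rose and 1, Tubb2a, fell in the Induced cells. Stmn1 rose 9.17-fold, gamma tubulin 4.31-fold and the leading alpha tubulin Tuba1b 3.67-fold as ratios of mean FPKM, while Tubb2a went to 0.290 of its level before culture. The test was limma on log2(FPKM + 1) over the 11265 genes with at least 1 FPKM in at least 3 libraries, with Benjamini-Hochberg adjustment and a threshold of 0.05. A large part of all genes passed it: 70.4% changed, 37.3% rose and 33.1% fell. A rise of at least 1 on the log2 scale was found for 7 of the 10 genes and for 12.0% of all genes tested. The 2 groups did not overlap for any of the 10, which held for 75.4% of all genes tested. The median log2 fold change was 1.32 over the 10 genes and 0.03 over all genes tested. The 10 genes were chosen with earlier results of these data known, so their contrast with all genes only describes them. Together the 10 genes took 0.279% ± 0.0110 (SD, n = 3) of summed FPKM before culture and 0.834% ± 0.0498 after it.

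**Figure D1:**
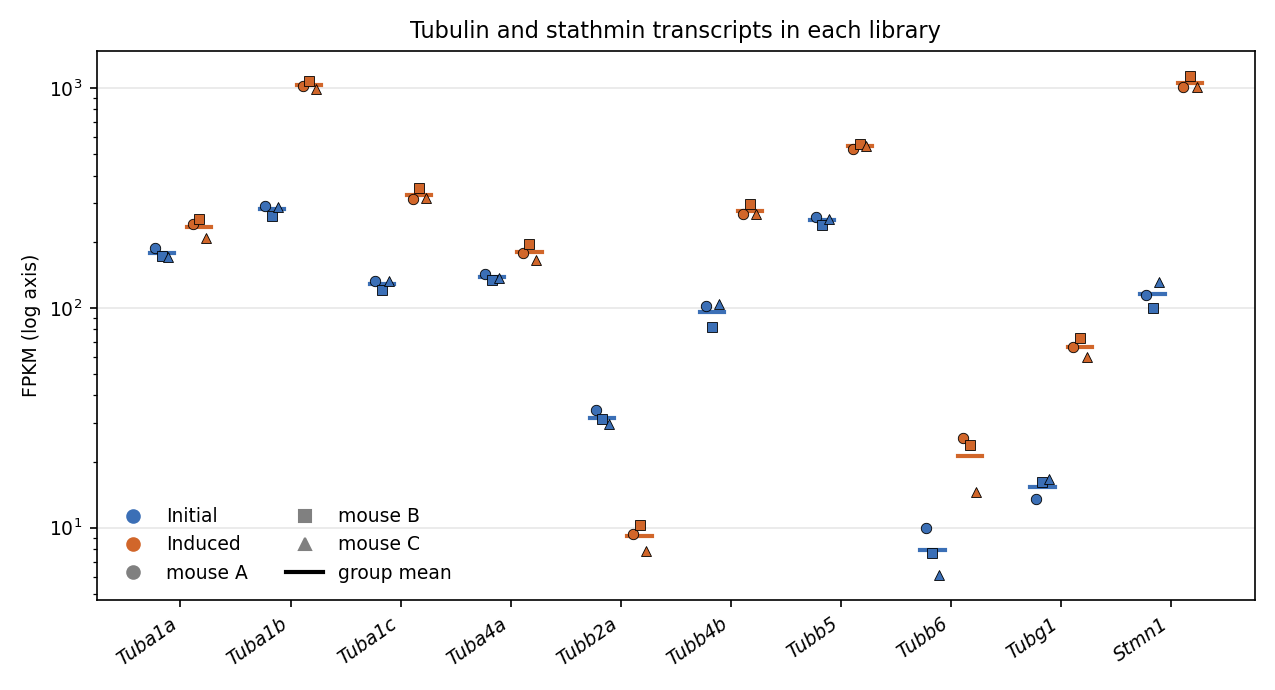
FPKM of the 10 tubulin and stathmin genes on a log axis, with a point for each library (colour for the group, shape for the mouse) and a bar at the group mean. Orange points (Induced) lie above blue points (Initial) for 9 genes and below them for Tubb2a, and Stmn1 moves from a mean of 115 to 1057 FPKM.

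The size of these changes depends on what the libraries are scaled to, but none of the 10 directions did under the 5 scalings tried. With the CD3 chains and Trdc as the scaling reference, the median over all genes moved from 0.03 to 0.23, and the split of calls from 4199 higher and 3732 lower to 5384 and 2676. With the 20 T cell identity genes as the reference, the median moved to 0.91 and the split to 8535 higher and 1305 lower. In that last scaling Tuba1a had a log2 fold change of 1.38 and Tubb2a of -0.76, and relative to the median of all genes they stood at 0.47 and -1.67. Stmn1 stood 3.26 above that median, against 3.16 as deposited. The same 9 genes rose and Tubb2a fell under each of the 5.

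The alpha tubulins come first, because the likeness of their sequences limits how well the isotypes can be told apart. Tuba1b, Tuba1a and Tuba1c lie within 106.7 kb of chromosome 15 (GRCm38), at 98931425 to 98934565 and 98949837 to 98953703 on the minus strand and at 99029891 to 99038110 on the plus strand. Tuba4a is on chromosome 1, from 75214228 to 75219865 on the minus strand. The coding sequences of Tuba1a and Tuba1b are 98.3% identical, those of Tuba1b and Tuba1c 97.9% and those of Tuba1a and Tuba1c 97.1%, whereas Tuba4a is 84.7 to 85.2% identical to the other three.

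Tuba1b, a general alpha tubulin of dividing cells, was at 290.0, 263 and 289 FPKM in Initial A, B and C and at 1022, 1073 and 993 in Induced A, B and C. Its log2 fold change was 1.87 (SE 0.07, 95% interval 1.71 to 2.03, limma adjusted p = 3.0e-07), and it went from place 229 to place 28 among the genes tested, ordered by mean FPKM. Every Induced library was over 3 times its own mouse's Initial library, with ratios of 3.52, 4.09 and 3.43 in mice A, B and C. Tuba1c, its close relative, was at 133, 121 and 132 FPKM before and 312, 349.8 and 317 after culture. The groups were far apart, with a log2 fold change of 1.33 (SE 0.07, limma adjusted p = 2.0e-06). Tuba1a, the alpha tubulin best known from developing neurons, was at 188, 172 and 171 FPKM and then at 240.2, 253 and 208. Its rise was small, 0.40 on the log2 scale (SE 0.09, limma adjusted p = 0.00395), and the lowest Induced library, C, was only 1.22 times the Initial library of the same mouse. Tuba4a, an isotype known for lacking the encoded tyrosine at its end, was at 143, 134 and 137 FPKM and then at 178, 195 and 166. It rose by about as much as Tuba1a (0.38, SE 0.07, limma adjusted p = 0.00234).

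How the fragments were divided among Tuba1a, Tuba1b and Tuba1c is uncertain. Of all 100-base windows in their transcripts, 65.1% in Tuba1a, 69.5% in Tuba1b and 53.4% in Tuba1c also occur in another gene, whereas none do in Tuba4a. Their transcripts are of similar length (1743 to 1982 bases), so the sum of the 3 depends little on that division, and it went from 587 ± 28.0 to 1589 ± 80.2 FPKM (SD, n = 3), a ratio of 2.71. The related rows Gm17383, Gm3756 and Gm14150, which hold some of the same windows, were at 7.02, 0.638 and 12.4 FPKM before and at 9.81, 2.09 and 42.6 after culture, small beside the 3 genes. Tuba4a overlaps exons of Stk16, a kinase gene on the other strand, and the labels do not say whether fragments were assigned by strand, so reads in the overlap cannot be told apart. Stk16 itself was at 26.7 ± 3.03 and 43.9 ± 3.62 FPKM.

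The beta tubulins are less alike, with 80.2 to 84.6% identity among the coding sequences of the 4 members. An exception is Tubb2a, which is 96.5% identical to its neighbour Tubb2b 56.2 kb away on chromosome 13. The last 60 coding bases, which encode the acidic tail where tubulins differ most and where enzymes modify them, are shown for Tubb2a, Tubb2b and Tubb4b against Tubb5, the most abundant beta tubulin here. They are 5′ to 3′ on the coding strand, stop codon included, with capitals at bases that do not match Tubb5 in a pairwise alignment of the whole coding sequences (20 in Tubb4b, 16 in Tubb2a and 19 in Tubb2b). The alignment has gaps that are not printed, so the lines do not correspond base by base from the left, and a lower-case base matches Tubb5 at its aligned position. In GRCm38, Tubb5 spans 35833921 to 35838306 on chromosome 17, Tubb4b 25222160 to 25224702 on chromosome 2 and Tubb2a 34074274 to 34078007 on chromosome 13, all on the minus strand.
Tubb5: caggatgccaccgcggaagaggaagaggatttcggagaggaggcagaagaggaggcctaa
Tubb4b: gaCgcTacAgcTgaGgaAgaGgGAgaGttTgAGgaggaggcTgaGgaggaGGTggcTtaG
Tubb2a: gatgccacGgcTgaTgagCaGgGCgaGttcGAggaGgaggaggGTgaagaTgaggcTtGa
Tubb2b: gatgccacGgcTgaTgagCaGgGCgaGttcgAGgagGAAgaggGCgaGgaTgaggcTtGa

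Tubb5, the beta tubulin of most dividing cells, was at 258, 239 and 253 FPKM before and at 529, 559 and 545 after culture. That is a log2 fold change of 1.12 (SE 0.06, limma adjusted p = 2.2e-06), with the smallest standard error of the 10 genes. Tubb4b, another broadly expressed isotype, was at 102, 82.1 and 104 FPKM and then at 268, 296 and 267. Initial B was its lowest library and Induced B its highest, so the ratio within mouse B, 3.60, was above the 2.62 and 2.56 of mice A and C (log2 fold change 1.52, SE 0.10, limma adjusted p = 5.7e-06). Of the 100-base windows in Tubb4b, 29.2% also occur in another gene, mostly Tubb4b-ps1. The row of Tubb4b-ps1 was at 1.72 ± 0.142 and then 4.92 ± 0.635 FPKM (SD, n = 3). Tubb6, a minor isotype, was at 9.99, 7.71 and 6.11 FPKM and then at 25.6, 23.8 and 14.5. It varied most between libraries of a group, and its rise of 1.31 on the log2 scale had the widest interval of the 10, from 0.75 to 1.86 (SE 0.24, limma adjusted p = 0.00188). That interval is from the fit without the mouse as a block. The ratios of Tubb6 within mice A, B and C were 2.56, 3.09 and 2.38. Tubb6 lies on chromosome 18, from 67390717 to 67402749 on the plus strand.

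Tubb2a, an isotype best known from the nervous system, was the exception in direction. It was at 34.2, 31.1 and 29.8 FPKM in the Initial libraries and at 9.41, 10.3 and 7.81 in the Induced ones. Each Induced library held 0.263 to 0.332 of the level in the same mouse before culture, a log2 fold change of -1.69 (SE 0.11, 95% interval -1.94 to -1.44, limma adjusted p = 4.2e-06). Tubb2b fell too, from 5.67 ± 0.339 to 1.44 ± 0.0736 FPKM (SD, n = 3). Since 36.9% of the windows in Tubb2a also occur in another gene, mostly Tubb2b, the sum of both depends less on how fragments were divided, and it went from 37.4 to 10.6 FPKM, a ratio of 0.284. The macrophage, red cell and B cell genes given above fell between the same groups, and their part in the fall of Tubb2a was not tested.

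**Figure D2:**
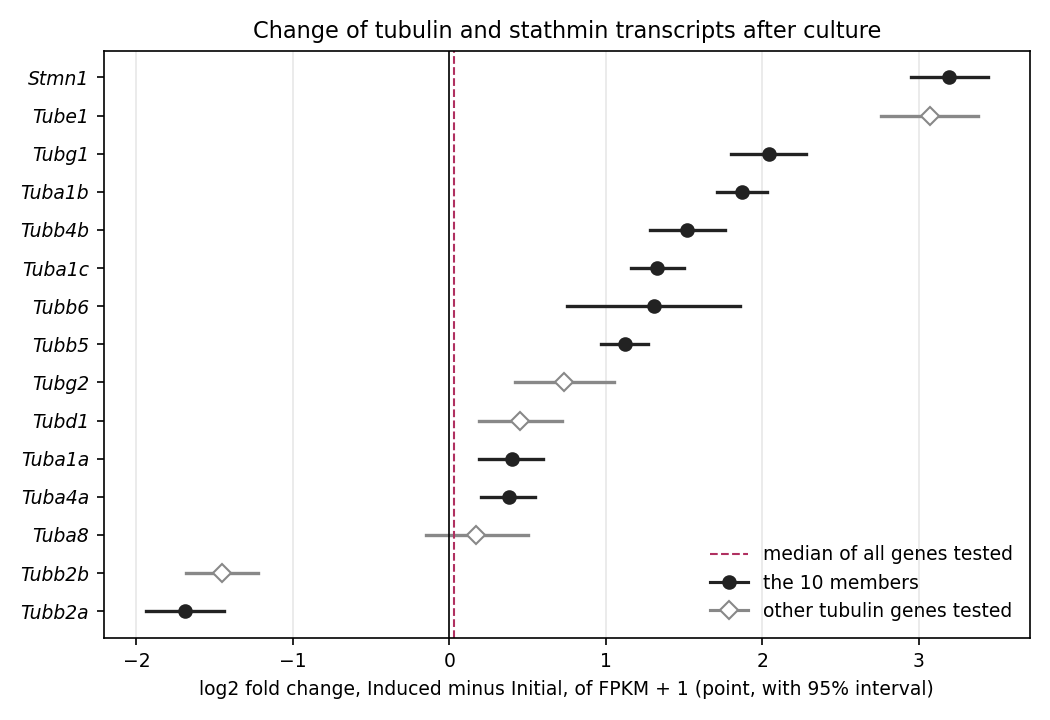
Log2 fold change of FPKM + 1, Induced minus Initial, for the 10 genes (filled) and the 5 other tubulin genes tested (open), each with its 95% interval from limma on 3 libraries per group. The dashed line is the median of all genes tested, 0.03, and Tubb2a and Tubb2b are the genes whose intervals lie wholly below 0.

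Gamma tubulin, Tubg1 (chromosome 11, 101119938 to 101126419, plus strand), was at 13.5, 16.1 and 16.6 FPKM before and at 66.5, 73.3 and 59.5 after culture. The lowest Induced library was far above the highest Initial library, with a log2 fold change of 2.04 (SE 0.10, limma adjusted p = 1.4e-06). Set against the summed alpha tubulin members in the same library, Tubg1 went from 2.13 ± 0.298 to 3.75 ± 0.196 per 100 FPKM of alpha tubulin (SD, n = 3). Only 4.1% of its windows occur elsewhere, in Tubg2, which rose from 0.380 ± 0.195 to 1.28 ± 0.142 FPKM.

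Stathmin, Stmn1 (chromosome 4, 134468320 to 134473843, plus strand), had the largest change of the 10 genes. It was at 115, 99.7 and 131 FPKM in the Initial libraries and at 1015, 1139 and 1017 in the Induced ones, a log2 fold change of 3.19 (SE 0.11, 95% interval 2.95 to 3.44, limma adjusted p = 1.7e-07). The ratios within mice A, B and C were 8.83, 11.4 and 7.77. Stmn1 went from place 691 to place 26 among the genes tested. Per 100 FPKM of summed alpha tubulin it stood at 15.2, 14.4 and 17.9 before and at 57.9, 60.9 and 60.4 after culture. A share of 26.1% of its windows also occurs in Gm11223, whose own level was 0.789 ± 0.189 and then 8.62 ± 2.09 FPKM. Of the related stathmins, mainly genes of neurons, Stmn2 was listed at 0.193, 0.311 and 0.244 FPKM before culture and had no row after it. Stmn3 was listed in Induced A alone, at 0.207 FPKM, and neither passed the filter.

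The order of the levels differed between the groups. Before culture it ran Tuba1b, Tubb5, Tuba1a, Tuba4a, Tuba1c, Stmn1, Tubb4b, Tubb2a, Tubg1 and Tubb6 by mean FPKM. Only Tuba1c with Stmn1 and Stmn1 with Tubb4b, among neighbours in that order, overlapped between libraries. After culture it ran Stmn1, Tuba1b, Tubb5, Tuba1c, Tubb4b, Tuba1a, Tuba4a, Tubg1, Tubb6 and Tubb2a, and Stmn1 with Tuba1b was the only overlapping neighbour. Within the Induced group, library B was the highest for 9 of the 10 genes (Tubb6 was highest in A) and library C the lowest for 7. Within the Initial group, library A was the highest for 7 and library B the lowest for 6. These counts were not made over all genes tested, so whether they are particular to the 10 genes is not known.

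The make-up of each tubulin family was then compared as shares, which do not depend on how libraries are scaled. The summed alpha tubulin members went from 725 ± 32.1 to 1769 ± 94.4 FPKM and the summed beta members from 386 ± 23.4 to 851 ± 32.3 (SD, n = 3), ratios of 2.44 and 2.21. Tuba1b took 38.5, 38.0 and 39.7% of alpha tubulin before and 58.3, 57.3 and 58.9% after culture. Tuba1a went from 24.4% ± 0.859 to 13.2% ± 0.724 and Tuba4a from 19.1% ± 0.352 to 10.1% ± 0.266, both without overlap, whereas Tuba1c had 17.8% ± 0.290 and 18.4% ± 0.538 with overlapping groups. Among beta tubulins, Tubb4b went from 24.9% ± 1.89 to 32.5% ± 0.691 and Tubb2a from 8.22% ± 0.577 to 1.08% ± 0.122. Tubb5 had 64.8% ± 1.36 and 63.9% ± 1.27, and Tubb6 2.06% ± 0.462 and 2.50% ± 0.686, with overlapping groups for both. In a two-sided exact permutation test over the 6 libraries, the 5 shares without overlap had p = 0.1, the smallest that 3 against 3 libraries allow, and an adjusted p of 0.16 over the 8 isotypes. Tuba1c, Tubb6 and Tubb5 had exact p of 0.2, 0.4 and 0.5. None can therefore pass 0.05 in this design, and the split among the 3 Tuba1 genes carries the uncertainty of their shared sequence.

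**Figure D3:**
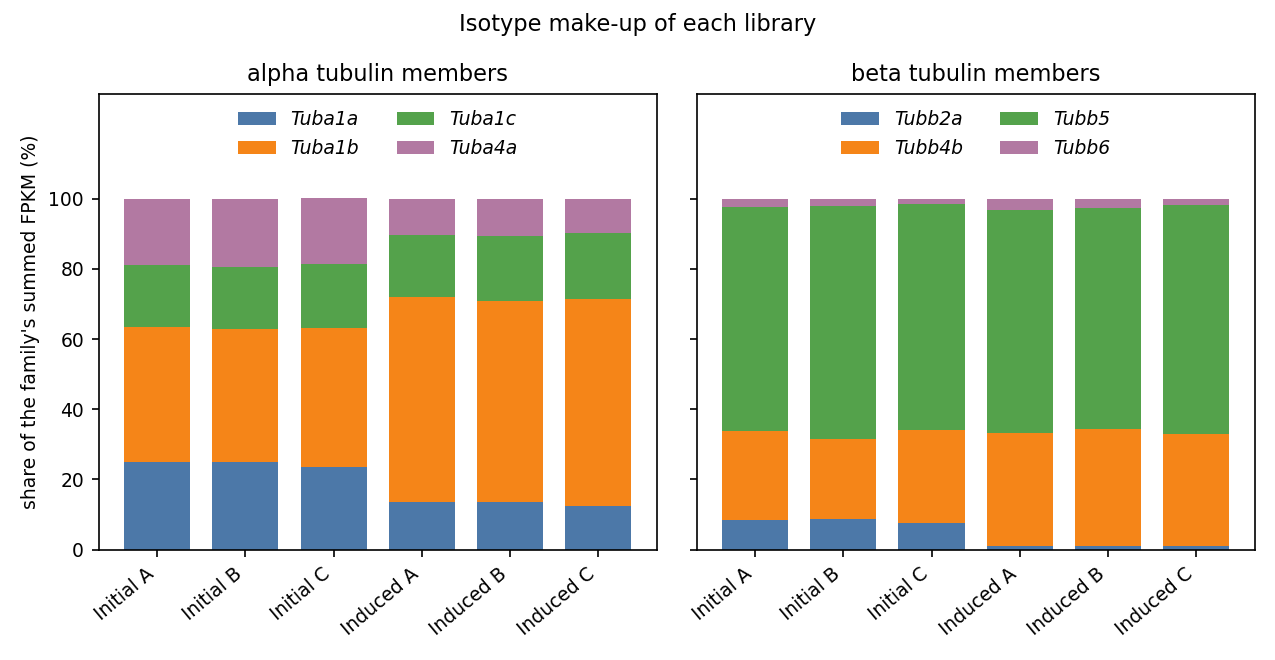
Share of each isotype in the summed FPKM of the alpha tubulin members (left) and beta tubulin members (right), 1 bar for each library, from 0 to 100%. Tuba1b widens from 38.0 to 39.7% in Initial to 57.3 to 58.9% in Induced libraries, and Tubb2a shrinks from 7.57 to 8.66% to 0.937 to 1.16%, while Tubb5 stays between 62.9 and 66.4%.

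Promoters were searched for the CCAAT box, a short element of many promoters active in dividing cells, and for other short strings. Those of Tubb4b, Tuba1b and Tubb2a are printed, chosen after the search as the promoter with the most matches and as those of a gene that rose and a gene that fell with none. The RefSeq table (GRCm38.p6) held 7 of the 10 genes, from 250 bases before to 50 bases after the start, and did not hold Tubb6, Tubg1 and Stmn1. The search covered both strands and 4 strings of letters: CCAAT of the CCAAT box, the form TTTGAA of the cell cycle homology region, and the forms TTTGGCGC and TTTCCCGC of the E2F site. Tubb4b (chr2:25224653-25224952, minus strand) held CCAAT 5 times, starting at -221, -188, -122, -59 and -19 from the start site, and TTTGAA once at -198. Tubb5 held CCAAT at 2 places, Tuba1a and Tuba1c at 1 each. Tuba1b (chr15:98934341-98934640, minus strand), Tuba4a and Tubb2a (chr13:34077959-34078258, minus strand) held none of the 4 strings in this window. TTTGGCGC and TTTCCCGC were found in none of the 7, and no match overlapped another. Of 32851 RefSeq promoters of the same length, 37.4% held CCAAT at least once, 11.7% at least 2 times, 3.4% at least 3 times, 17.9% held TTTGAA, 0.5% TTTGGCGC and 1.1% TTTCCCGC. The sequences are written 5′ to 3′ on the gene's strand with the matches in capitals.
Tubb4b promoter: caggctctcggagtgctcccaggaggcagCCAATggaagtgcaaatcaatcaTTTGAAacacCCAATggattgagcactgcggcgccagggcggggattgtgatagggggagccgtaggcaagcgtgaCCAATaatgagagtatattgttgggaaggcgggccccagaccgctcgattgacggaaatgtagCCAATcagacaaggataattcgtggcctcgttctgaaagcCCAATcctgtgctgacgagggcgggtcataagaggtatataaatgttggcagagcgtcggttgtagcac
Tuba1b promoter: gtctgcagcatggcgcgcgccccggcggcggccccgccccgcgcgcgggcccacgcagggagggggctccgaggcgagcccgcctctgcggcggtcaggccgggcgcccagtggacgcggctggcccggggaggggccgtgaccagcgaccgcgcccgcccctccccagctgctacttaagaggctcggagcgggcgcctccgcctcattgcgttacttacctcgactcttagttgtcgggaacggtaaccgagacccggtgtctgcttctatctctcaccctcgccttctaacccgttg
Tubb2a promoter: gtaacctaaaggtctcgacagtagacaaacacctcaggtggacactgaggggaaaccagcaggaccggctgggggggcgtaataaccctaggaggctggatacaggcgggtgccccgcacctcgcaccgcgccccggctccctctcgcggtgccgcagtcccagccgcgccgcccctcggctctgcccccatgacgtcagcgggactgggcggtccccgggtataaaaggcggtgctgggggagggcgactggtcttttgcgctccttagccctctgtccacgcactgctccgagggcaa

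The other tubulin genes were mostly near absent. Of 11, 5 could be tested, and Tube1, Tubg2 and Tubd1 rose, Tubb2b fell and Tuba8 did not pass (1.26 ± 0.248 and 1.55 ± 0.353 FPKM, limma adjusted p = 0.293). Tube1, epsilon tubulin of the centriole, was at 1.38, 1.77 and 1.73 FPKM and then at 20.7, 25.0 and 17.9. Its log2 fold change was 3.07 (SE 0.13, limma adjusted p = 6.3e-07), and its ratio of means was 13.0, against 9.17 for Stmn1, from a far lower level. Tubd1, delta tubulin, also of the centriole, rose from 6.91 ± 0.567 to 9.86 ± 1.40. Tubb1, the beta tubulin of platelets, was at 0.381, 0.934 and 0.220 FPKM before culture and had no row in any Induced library. The platelet genes Ppbp, Gp9 and Gp1bb had none there either. Pf4 and Itga2b, also platelet genes, were still listed in Induced A (0.0723 and 0.169 FPKM) and Induced C (0.0659 and 0.156), but not in Induced B. A missing row may stand for a failed estimate as well as for no fragments. Tubb3, known from neurons, went from 1.12, 0.916 and 0.963 to 0.242, 0.0891 and 0.274 FPKM and Tubb4a from 0.351 ± 0.0382 to 0.814 ± 0.231, both under the filter and not tested. Tuba3a, Tuba3b and Tubal3 stayed below 0.1 FPKM in every library.

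The other genes of the pathway, together with 5 proliferation markers, were counted by role. The 80 tested include those 5, which all rose, and 6 kinases known to phosphorylate stathmin, of which 5 rose. Of the 80 in all, 43 rose, 8 fell and 29 did not pass, with a median log2 fold change of 0.28. Over all genes tested, 37.3% were higher and 33.1% lower. Shares of single lists near these, such as 2 of 8 CCT subunits higher, say nothing about the list. With the T cell identity genes as the scaling reference, 75 of the 80 rose and Tubb2b and Pak1 fell. That scaling raised Induced relative to Initial values, by a factor that differed between libraries, and made 8535 of all 11265 genes higher.

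New tubulin chains are passed by prefoldin to the CCT chaperonin, and the cofactors then join alpha and beta chains into dimers. Of the 8 CCT subunits, Tcp1 and Cct6a rose, Cct3 fell and 5 did not pass, with a median log2 fold change of 0.08. Tcp1 was at 125, 121 and 139.9 FPKM and then at 220.0, 214 and 229 (log2 fold change 0.78), and Cct3 at 169 ± 7.79 and then 129 ± 13.2 (-0.39). With the T cell identity scaling Cct3 had 0.59, below the 0.91 of the median gene in that scaling. Of the 6 prefoldin subunits, 3 rose (Pfdn1, Vbp1 and Pfdn4), Pfdn2 fell and 2 did not pass, with a median of 0.25. Pfdn4 went from 11.7 ± 0.518 to 23.7 ± 1.63 FPKM and Pfdn2 from 15.5, 13.6 and 15.9 to 9.13, 8.15 and 10.2 (log2 fold change -0.66, or 0.25 with the T cell identity scaling, again below its median gene). Of the 7 cofactor genes, 4 rose (Tbcb, Tbcc, Tbcd and Arl2), Tbcel fell and 2 did not pass, with a median of 0.45. Tbcd went from 15.5 ± 2.64 to 32.7 ± 1.22 FPKM, while Tbcel went from 4.89 ± 0.104 to 3.49 ± 0.502, a log2 fold change of -0.40, or 0.40 with the T cell identity scaling, where the median gene had 0.91.

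Of the 3 genes through which tubulin messenger RNA is degraded when free dimers abound, none rose, Scaper fell and 2 did not pass. Ttc5, which recognises the nascent tubulin chain, was at 36.3 ± 1.09 FPKM and then at 39.0 ± 2.39 (limma adjusted p = 0.22). Cnot11, of the deadenylase complex, was at 16.2 ± 1.93 and 17.5 ± 1.44 (limma adjusted p = 0.36). Scaper, the adaptor between them, went from 6.86 ± 0.753 to 4.03 ± 0.347 FPKM (log2 fold change -0.64, SE 0.11, limma adjusted p = 0.00106). With the T cell identity scaling its log2 fold change was 0.19, where the median gene had 0.91.

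Of the 8 other genes of the gamma tubulin ring complex and its anchors, 5 rose (Tubgcp2, Tubgcp3, Tubgcp5, Mzt2 and Nedd1), 3 did not pass and none fell, with a median log2 fold change of 0.33 against the 2.04 of Tubg1. Nedd1, which recruits the ring complex to the spindle, went from 9.17 ± 0.330 to 25.4 ± 0.618 FPKM (log2 fold change 1.38, SE 0.07). Among the 14 tested genes of tubulin modification, 8 rose and 6 did not pass, with a median of 0.33. On the log2(FPKM + 1) scale the largest rise was that of Ttll12, a gene of the tubulin tyrosine ligase-like family, from 8.94 ± 1.54 to 17.9 ± 0.624 FPKM. As a ratio of means it was 2.01, below the 2.23 of the less abundant tyrosine ligase gene Ttl. Of 5 severing enzyme genes tested, 2 rose and 3 did not pass. Katnal1 rose by 0.65 on the log2 scale, and Fignl1, a member of the fidgetin family known from DNA repair, from 2.34 ± 0.248 to 49.9 ± 3.54 FPKM (log2 fold change 3.93).

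Of 13 genes of proteins that bind microtubules or their ends, 6 rose, 2 fell and 5 did not pass, with a median log2 fold change of 0.24. The 4 with the largest rises, named after their values were seen, act at the mitotic spindle: Prc1 (log2 fold change 4.16), Tpx2 (4.00), Tacc3 (3.28) and Ckap5 (1.63). Prc1, which bundles microtubules in the middle of the dividing cell, was at 4.74, 4.68 and 4.92 FPKM and then at 101, 113 and 93.0. Map4 and Mapre1 also rose, by 0.54 and 0.17 on the log2 scale, and Map7 and Mapre3 fell. Map7, which recruits the motor kinesin, went from 5.11 ± 0.567 to 2.63 ± 0.584 FPKM (log2 fold change -0.76). With the T cell identity scaling it had 0.01, below the 0.91 of the median gene.

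Of 6 tested kinases known to phosphorylate stathmin, 5 rose (Cdk1, Cdk2, Aurkb, Camk4 and Prkaca) and Pak1 fell, with a median log2 fold change of 1.33. Aurkb, a mitotic kinase, was at 3.76, 3.69 and 4.18 FPKM and then at 96.9, 115 and 93.3 (log2 fold change 4.39, SE 0.09, limma adjusted p = 4.4e-08). Pak1 went from 7.31, 6.04 and 3.81 FPKM to 0.355, 0.398 and 0.381 (log2 fold change -2.25, SE 0.19, limma adjusted p = 2.2e-05), while the macrophage gene Csf1r was at 72.2, 60.2 and 37.3 FPKM in the same Initial libraries and at 0.107, 0.0914 and 0.0363 in the Induced ones. The part of such cells in the fall of Pak1 was not tested. All 5 proliferation markers rose, with a median of 3.04. Ccnb1, the cyclin of entry into mitosis, was at 3.52 ± 0.301 FPKM and then at 86.4 ± 6.64 (log2 fold change 4.27).

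**Figure D4:**
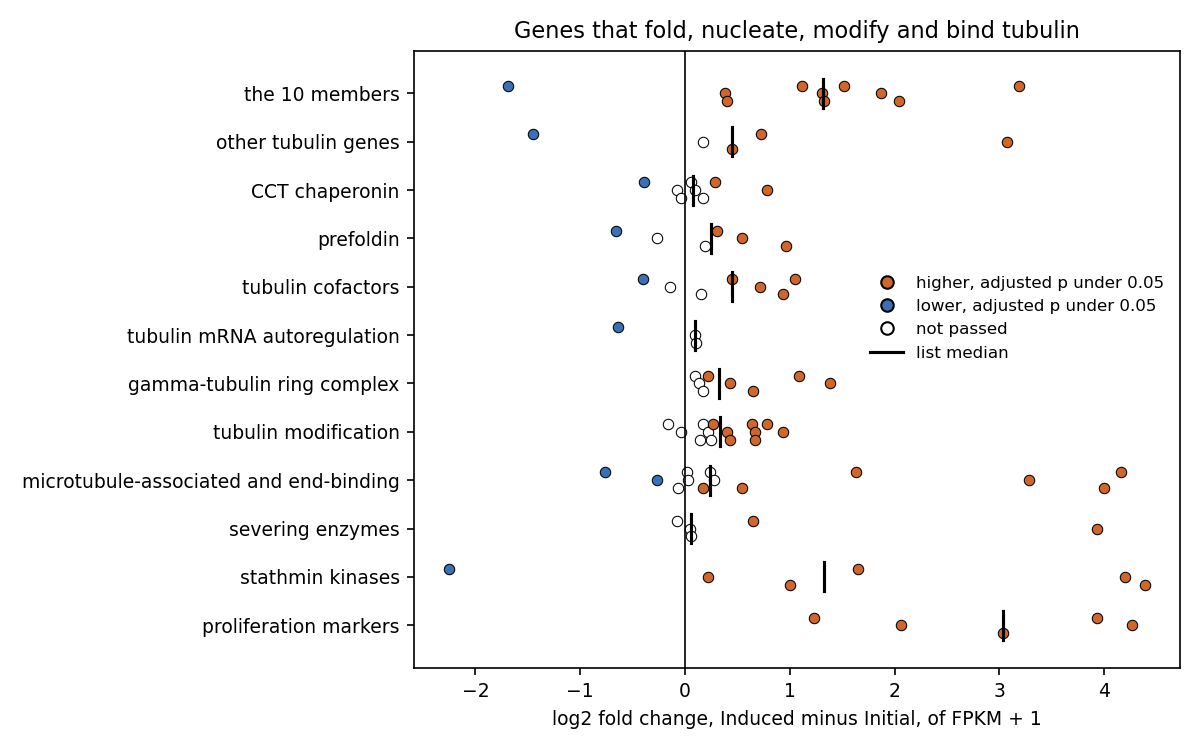
Log2 fold change of FPKM + 1, Induced minus Initial, of the 10 tubulin and stathmin genes and of the tested genes of 11 related lists, with 1 point for each gene and a bar at each list's median. The medians of the folding, autoregulation, nucleating, modifying, binding and severing lists lie between 0.06 and 0.45, below the 1.32 of the 10 genes, and those of the stathmin kinases and proliferation markers at 1.33 and 3.04.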

How the data were processed

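The authors deposited 1 table per library with a gene identifier, symbol, locus and FPKM, per the file headers. Libraries were made with an mRNA-seq kit and FPKM calculated with Cuffdiff, per the labels' protocols. CASAVA, HISAT2 2.0.5 and Cuffdiff (1.3.0 and 2.2.1) and the build mm9 are named, per the submitters' processing notes. The loci in the tables are not mm9: of 26669 identifiers found in GENCODE M21 (GRCm38), 99.94% share the chromosome and 91.14% lie inside the deposited span, and GRCm38 is therefore used for positions. A gene with no row in a table was taken as 0. The strand setting and the handling of fragments that fit several genes are not stated in the labels.

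The test was limma (3.58.1, R 4.3.3) on log2(FPKM + 1) values (mean-variance trend, robust shrinkage, two-sided, no block), over the 11265 genes with at least 1 FPKM in at least 3 libraries. P-values were adjusted by Benjamini-Hochberg over all of them, and genes under 0.05 were called. Fold changes on this scale are understated for low genes. Ratios are of mean FPKM. Isotype shares were compared with exact permutation tests in scipy 1.17.1. Coding sequences were aligned with biopython 1.88.

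The mouse letters in the labels pair the libraries by animal. Deviations from the group means correlated at 0.039, 0.031 and 0.131 within mice A, B and C and at -0.132 to 0.099 between mice, so the pairing did not stand out. Pairwise comparison of the tables found no copied library.

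The 10 genes and the lists were chosen with earlier results of these data known. All 10 are given in every library. From each related list the largest rise and the largest fall past the threshold are named, and all genes of the tubulin and stathmin lists with a row. A marker gene and the coding ends of the alpha tubulins are not reported here. Other list genes were named after their values were seen. Alternatives were pseudocounts of 0.1 and 5, no filter or a filter at 5 FPKM, 5 scalings, the mouse as a block, limma without trend or robust shrinkage, all tubulin genes in the shares, and leaving out each library.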

Additional observations from a re-analysis of the deposited data

How the results depend on the processing

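For the 10 tubulin and stathmin genes, all 170 values under 17 alternatives each kept their direction and stayed past the threshold, with the highest adjusted p, 0.0203, for Tuba1a. Values for Tubb6 ran from 1.01 to 2.21 on the log2 scale and for Stmn1 from 3.09 to 4.17. With the mouse as a replicate block the same call was made for each of the 10 genes (Tubb6 with a log2 fold change of 1.31 and adjusted p = 3.9e-05), and 43 list genes were called higher and 8 lower, as without it. List genes called lower numbered 4 with a filter at 5 FPKM, where fewer genes are tested, 11 with no filter, 5 with scaling to the CD3 chains and Trdc, where 63 were called higher, and 2 with scaling to the T cell identity genes, where 75 were called higher. That last scaling turned Cct3 to 0.59, Pfdn2 to 0.25, Tbcel to 0.40, Scaper to 0.19 and Map7 to 0.01, and its construction raises every gene in Induced relative to Initial libraries, the median gene to 0.91. With the CD3 and Trdc scaling Cct3 (-0.16) and Tbcel (-0.22) no longer passed. Leaving out each library gave 38 to 44 list genes higher and 7 to 8 lower. The difference in the Tubb5 share, -0.91 points, became 0.15 with all tubulin genes in the sum, both with overlapping groups. The FPKM tables carry no counts, so the precision of the low genes rests on estimated depth.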
